A study of Homo sapiens with 45 samples.

Results

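The 10 histone deacetylase genes described here are HDAC1, HDAC2, HDAC3 and HDAC8 (class I), HDAC4, HDAC5 and HDAC7 (class IIa), HDAC6 and HDAC10 (class IIb) and HDAC11 (class IV). They were chosen by symbol as zinc-dependent deacetylases and make up 10 of the 15698 genes with deposited values. HDAC9, also of class IIa, is not one of the 10, so counts and class shares below leave it out. The sequenced RNA came from HCT116-VR, a line derived from the colorectal cancer cell line HCT116 by culture in rising concentrations of vorinostat, an inhibitor of histone deacetylases. All cells were of this 1 resistant line, no parental cells were sequenced, and the labels of the RNA samples name no drug. Cells received lipid only (mock transfection) or a pool of siRNAs at 40 nM and were harvested after 48 h. The 14 siRNAs were siBEGAIN, siCCNK, siCDK10, siDPPA5, siEIF3L, siGLI1, siJAK2, siNFYA, siPOLR2D, siPSMD13, siRGS18, siSAP130, siTGM5 and siTOX4. With 3 independent experiments for each of the 15 conditions, there were 45 libraries. No siRNA was aimed at a deacetylase, while SAP130 encodes a subunit of the SIN3 corepressor complex, in which HDAC1 and HDAC2 act.

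Library numbers head the deposited columns, and conditions come only from a list in the study's supplement. That list did not hold up against the siRNA targets. Each of 11 measured targets should be lowest in its own 3 libraries, but 3 of these 33 places were taken by a library of the matching siRNA, and 0 of the 11 targets had all 3. Libraries therefore go by their listed names ("listed as mock replicate 1"), none was given another condition, and most values below are over all 45 libraries, which needs no condition names. The libraries held 7569592 to 21149597 reads (median 11551126). Of the markers of colorectal epithelium, 6 of 10 were among the deposited genes, with KRT19 highest at a median of 316 RPKM (reads per kilobase of merged exons, scaled to the size of the library), while KRT20, CDX1, VIL1 and LGALS4 were not. Markers of leukocytes (0 of 4) and endothelium (0 of 3) were not among them either, and of 4 fibroblast markers COL1A1 was, at 1.39 RPKM.

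Histone deacetylases remove acetyl groups from lysines of histones and other proteins, and most act as the catalytic part of larger complexes. HDAC1 and HDAC2 are close paralogues shared by the SIN3, NuRD and CoREST complexes, HDAC3 works in the complex of the corepressor NCOR1, and HDAC8 acts outside these complexes, with the cohesin subunit SMC3 among its substrates. The class IIa enzymes have weak activity of their own and shuttle between nucleus and cytoplasm, where 14-3-3 proteins hold them, and they repress transcription factors of the MEF2 family. HDAC6 deacetylates tubulin and HSP90 in the cytoplasm, HDAC10 acts on polyamines, and HDAC11 removes longer fatty acyl groups. Vorinostat chelates the zinc ion in the active site and inhibits enzymes of several of the classes.

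The 250 bases before the annotated start are shown for HDAC1, which had the highest level, and for HDAC3 and HDAC4, whose values followed sets of libraries most closely. They are from RefSeq on GRCh38.p14, printed from 5′ to 3′ on the strand of the gene, and lie at chr1:32291833-32292082 (+), chr5:141636850-141637099 (-) and, for the most upstream of 5 annotated starts of HDAC4, chr2:239401650-239401899 (-). Capitals mark the CCAAT box, the letters bound by the NF-Y factor of which NFYA is a subunit (CCAAT, or ATTGG for the other strand), and the GC box bound by the Sp1 family (GGGCGG, or CCGCCC).
HDAC1: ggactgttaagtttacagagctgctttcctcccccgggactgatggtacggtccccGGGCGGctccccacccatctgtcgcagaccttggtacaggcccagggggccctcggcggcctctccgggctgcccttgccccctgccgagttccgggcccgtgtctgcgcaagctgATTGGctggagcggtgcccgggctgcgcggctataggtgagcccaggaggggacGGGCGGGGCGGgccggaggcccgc
HDAC3: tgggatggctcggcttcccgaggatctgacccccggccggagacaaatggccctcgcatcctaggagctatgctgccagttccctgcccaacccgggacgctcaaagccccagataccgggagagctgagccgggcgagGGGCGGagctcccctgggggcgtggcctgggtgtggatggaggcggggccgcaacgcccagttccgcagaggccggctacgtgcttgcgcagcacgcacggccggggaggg
HDAC4: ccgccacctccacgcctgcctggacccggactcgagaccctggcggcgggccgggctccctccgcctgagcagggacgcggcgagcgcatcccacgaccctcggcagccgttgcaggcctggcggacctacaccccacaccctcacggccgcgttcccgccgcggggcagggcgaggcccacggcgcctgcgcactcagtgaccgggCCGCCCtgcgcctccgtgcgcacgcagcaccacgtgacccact

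A window was found for 9 of the 10 genes, the exception being HDAC5. HDAC1 held 1 CCAAT box and 3 GC boxes, of which the last 2 share letters, while HDAC3 and HDAC4 each held 1 GC box. Of the 9 windows found, 2 held a CCAAT box (HDAC1 and HDAC10) and 6 a GC box, against 32.0% and 42.6% of all 35116 windows. The 2 sets are not alike, since the 35116 hold every listed start of a gene and the 9 only the most upstream one. HDAC2, HDAC7 and HDAC8 held neither. A match is a match of letters and says nothing of binding.

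The levels of the 10 genes spanned a wide range and kept much of their order from library to library. HDAC1 was the highest of the 10, with a mean of 66.3 ± 6.67 RPKM (SD, n = 45 libraries), and HDAC10 was the lowest, with 0.353 ± 0.100. The class I genes made up a median of 88.8% of the summed level of the 10 genes (83.5% to 92.1%), class IIa 8.53%, class IIb 1.4% and class IV 1.41%. HDAC1 and HDAC2 alone made up 72.4% (65.6% to 82.4%). These shares rest on merged exon lengths and change with the length used. In reads not divided by length, HDAC2 had a higher median (4441) than HDAC1 (3083). The sum itself ranged from 107.8 to 139.0 RPKM. These are bulk values, in which fewer expressing cells and less RNA per cell cannot be told apart.

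**Figure D1:**
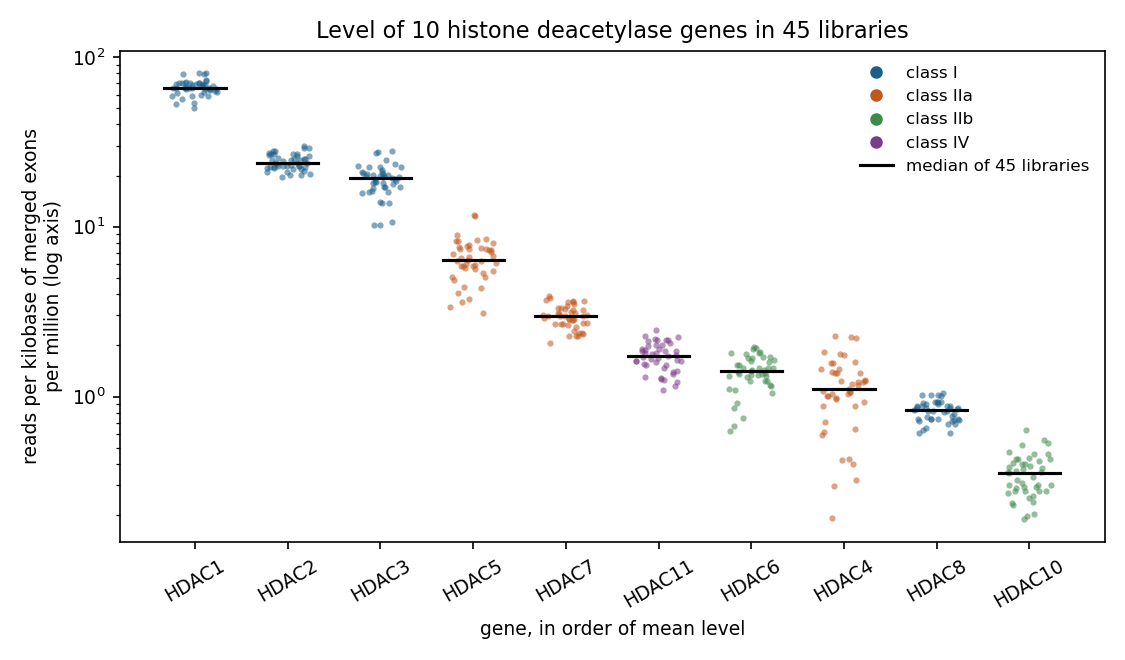
Level of each gene (RPKM, log axis) in the 45 libraries, 1 point for each library, with the median as a line and colours for the classes. HDAC1 stands above all others in every library, HDAC4 has the longest spread, and the medians run from 65.7 for HDAC1 to 0.352 for HDAC10.

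Among the class I genes, HDAC1 ranged from 49.7 to 80.3 RPKM with a median of 65.7 (1541 to 5519 reads). HDAC2 ranged from 19.6 to 29.9 with a median of 23.7, and HDAC3 from 10.3 to 27.8 with a median of 19.3. HDAC8, the remaining class I gene, ranged from 0.607 to 1.05 with a median of 0.837. HDAC1 was above HDAC2 in 45 of 45 libraries, by 1.46 ± 0.22 on the log2 scale (SD), and HDAC2 was above HDAC3 in 39 of 45, by 0.37 ± 0.37. The last order rests on the length used, since with the longest transcript in place of merged exons the means were 38.0 for HDAC2 and 45.0 for HDAC3. HDAC8, whose merged exons are much longer than its longest transcript (22888 against 5689 bp), had a mean of 3.32 by the latter, still below the other class I genes.

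Among the class IIa genes, HDAC5 ranged from 3.11 to 11.7 RPKM (median 6.38), HDAC7 from 2.07 to 3.90 (median 2.96) and HDAC4 from 0.191 to 2.27 (median 1.11). HDAC3 was above HDAC5 and HDAC5 above HDAC7 in all 45 libraries, so that these neighbours were told apart. Of the class IIb genes, HDAC6 ranged from 0.631 to 1.97 (median 1.42) and HDAC10 from 0.189 to 0.634 (median 0.352). HDAC11, the class IV gene, ranged from 1.10 to 2.48 (median 1.73). The neighbours HDAC11 and HDAC6 (in order in 37 of 45 libraries), HDAC6 and HDAC4 (37 of 45) and HDAC4 and HDAC8 (34 of 45) differed on average by less than the spread of the difference. By the longest transcript the means were 3.49 for HDAC6, 3.32 for HDAC8, 3.15 for HDAC11 and 1.81 for HDAC4, so that the order of these 4 genes changes with the length used. HDAC7 was above HDAC11 in 44 of 45 libraries and HDAC8 above HDAC10 in 45 of 45.

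On GRCh37, HDAC1 lies at chr1:32757684-32799236, HDAC2 at chr6:114254192-114332472, HDAC3 at chr5:141000443-141016416, HDAC8 at chrX:71549366-71792951 and HDAC4 at chr2:239969864-240323348. HDAC5 lies at chr17:42154114-42201070, HDAC7 at chr12:48176505-48226915, HDAC6 at chrX:48659784-48683392, HDAC10 at chr22:50683612-50689834 and HDAC11 at chr3:13521224-13547924. Exons of other measured genes overlap some of them. For HDAC10, 55.8% of the merged exon length is shared with MAPK12 on the same strand, and for HDAC5, 24.0% is shared with G6PC3 on the opposite strand. The overlap was 0.45% for HDAC2 (with HDAC2-AS2) and 0.30% for HDAC7 (with SLC48A1). The sources used here do not say how reads in shared exons or on either strand were counted, and the kit does not mark strand, so the levels of HDAC10 and HDAC5 are uncertain to that extent. A pseudogene of HDAC1, HDAC1P2, was listed with 42 to 203 reads (median 107), and reads of the 2 may be split between them.

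The genes differed in how much they varied from library to library. On the deposited log2 scale, the SD over the 45 libraries was 0.15 for HDAC1 and 0.15 for HDAC2, and 0.535% and 0.739% of all genes had a lower one. HDAC8 (0.20), HDAC7 (0.23), HDAC11 (0.29), HDAC3 (0.33) and HDAC6 (0.38) followed. HDAC10 (0.41) and HDAC5 (0.42) lay just above the median of all genes (0.40). HDAC4 had the largest SD of the 10 at 0.79, and 87.9% of all genes had a lower one. The SD was below the median of all genes for 7 of the 10 genes, including 4 of 4 of class I.

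Spread falls with level, so each SD was also set beside the 500 genes nearest in mean level. Of these, 1.60% had a lower SD than HDAC1, 3.60% than HDAC2, 2.20% than HDAC8 and 8.60% than HDAC7. The share was 10.4% for HDAC10 and 13% for HDAC11. It was 53% for HDAC6, 60.8% for HDAC3, 73.4% for HDAC5 and 97.6% for HDAC4. HDAC3 and HDAC6, though below the median SD of all genes, were therefore above that of genes of like level (0.33 against 0.30 and 0.38 against 0.37). The SD that counting error alone would give was smaller than the measured one for all 10 genes. The ratio of the 2 was largest for HDAC3 (7.09) and HDAC2 (6.98) and smallest for HDAC10 (1.23), which had only 11 to 38 reads in a library, so that the spread of HDAC10 was close to what its depth allows.

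**Figure D2:**
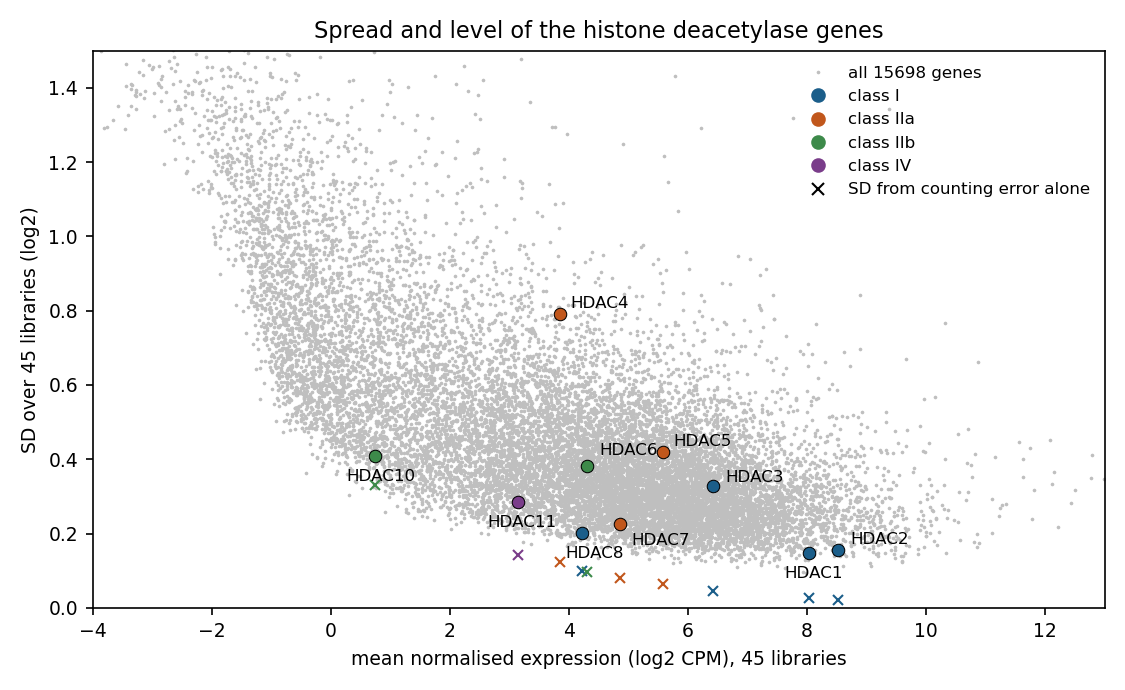
SD over the 45 libraries (log2) against mean normalised expression (log2 CPM), with all genes as grey points, the 10 deacetylase genes as coloured circles and, for each, a cross for the SD from counting error alone. Genes beyond the axes are not drawn. HDAC4 lies in the upper part of the cloud at 0.79, and HDAC1 and HDAC2 lie at its lower edge at 0.15.

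HDAC4 varied most of the 10 genes. It ranged from 1.44 to 5.01 on the log2 scale with a median of 3.97, an 11.9-fold range, with 31 reads in the lowest library and 471 reads at most. The lowest library was that listed as siGLI1 replicate 3 (1.44, 31 reads), and the next 5 were those listed as siPOLR2D replicate 1 (2.08), siTGM5 replicate 1 (2.19), siNFYA replicate 3 (2.50), siCCNK replicate 1 (2.58) and siPSMD13 replicate 2 (2.60). The next library stood at 3.07. The highest 3, listed as siJAK2 replicate 1, siGLI1 replicate 1 and siTOX4 replicate 2, had 5.01, 4.99 and 4.98. Libraries listed as replicates of siGLI1 were therefore at both ends of the range.

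The 45 libraries fell into sets of 3 when they were joined by a tree over 2196 variable genes that left out the deacetylases. There were 15 such sets, and the 6 libraries lowest in HDAC4 made up exactly 2 of them, a count taken after the values were seen. The libraries listed as siGLI1 replicate 3, siPOLR2D replicate 1 and siNFYA replicate 3 formed one and the other 3 the other. GLI1, a transcription factor of the Hedgehog pathway and one of the siRNA targets, had 0 reads in each library of the second set, which allows up to 3 reads, and 2 reads or more (median 10) in the remaining 42, so that the lowest of those is not told apart from 0 at this depth. No condition was assigned to a set.

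HDAC3 followed the sets most closely. Its median difference between a library and the 2 libraries nearest to it in the tree distance was 0.065 on the log2 scale, against 0.28 for all 990 pairs of libraries, a ratio of 4.24. The ratio was 2.64 for HDAC4, 2.40 for HDAC1 and 1.33 to 1.67 for the others. The median of 12655 genes with a mean log2 value of at least 1 was 2.41, so that HDAC4 and HDAC1 were near it. Some of the 12655 genes were used to build the tree. Between libraries listed as replicates, the median difference of HDAC3 was 0.25, close to that of all pairs.

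The lowest 3 libraries for HDAC3 had 5.56, 5.57 and 5.61 (listed as siCDK10 replicate 2, mock replicate 2 and siPOLR2D replicate 3), and the next had 5.99. They form one set in the tree, and the same 3 libraries were the lowest for HDAC7 (4.36, 4.50 and 4.50), although the next library for HDAC7 was also at 4.50. POLR2D, a subunit of RNA polymerase II and one of the siRNA targets, had 87, 102 and 147 reads in them and at least 629 in the other 42. The highest 3 for HDAC3 had 6.98, 6.99 and 7.0 (listed as siDPPA5 replicate 2, siTOX4 replicate 3 and siPSMD13 replicate 3), and the next had 6.84. In these, SAP130 had 22, 25 and 31 reads against at least 489 elsewhere.

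The highest 3 libraries for HDAC1 (8.30, 8.31 and 8.31, listed as siTOX4 replicate 1, siBEGAIN replicate 1 and siSAP130 replicate 2) also form one set, though the next library stood at 8.29. PSMD13, a subunit of the 26S proteasome, had 58, 97 and 108 reads there and at least 1983 elsewhere. Over the 10 genes, 4 of the 20 triples of highest or lowest libraries were one set of the tree, namely the lowest of HDAC3 and HDAC7 and the highest of HDAC3 and HDAC1. Over the 12655 genes with a mean log2 value of at least 1, some of which the tree was built from, 38% of such triples were one set, so that the share was no higher for the deacetylases.

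**Figure D3:**
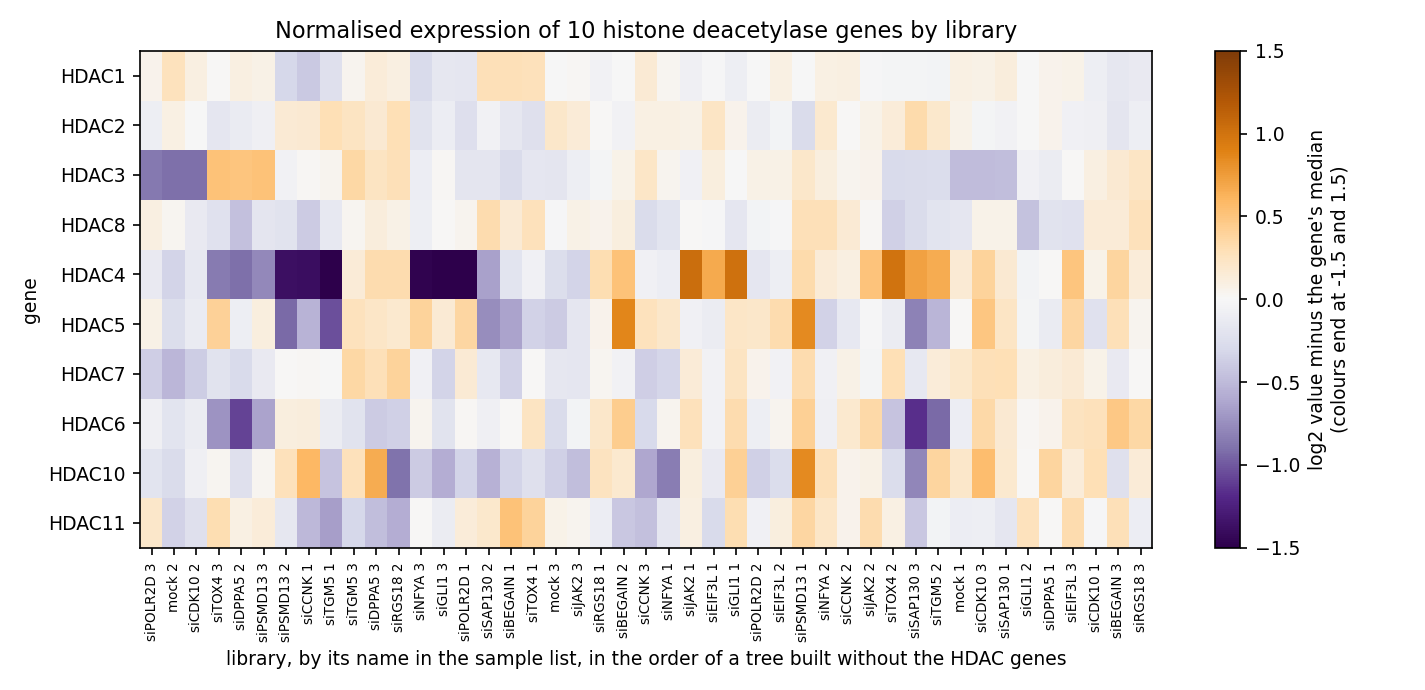
Normalised expression of each gene in each library as the log2 value minus the gene's median (colour, ending at -1.5 and 1.5), with libraries by their listed name in the order of the tree built without these genes. HDAC3 and HDAC4 change in blocks of 3 neighbouring libraries, with the 6 lowest HDAC4 libraries in 2 blocks, while HDAC10 does not.

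The library listed as siPSMD13 replicate 1 was among the highest 3 for 6 of the 10 genes and the lowest for HDAC2, more often at an end than any other library (4 genes at most). Its HDAC5 value was 6.46, its HDAC10 value 1.65 and its HDAC2 value 8.23. It held 10001418 reads, within the range of the others.

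Pairs of the 10 genes were compared across the 45 libraries. These correlations are descriptions over libraries that fall into sets, and they share the depth and scaling of each library. They were not set beside pairs of other genes, so whether the genes move together less than others is not shown. HDAC10, at 11 to 38 reads per library, had a spread close to counting error, which limits its r values. Of the 45 pairs, 2 had a Pearson r over 0.5 in size, namely HDAC2 with HDAC11 (r -0.63, Spearman rho -0.57) and HDAC7 with HDAC10 (r 0.50, rho 0.54). HDAC5 with HDAC2 had r -0.48 and HDAC6 with HDAC8 had 0.49, and the median over the pairs was 0.13. Without the library listed as siPSMD13 replicate 1 these 4 values were -0.61, 0.47, -0.43 and 0.46. The paralogues HDAC1 and HDAC2 had r -0.097. HDAC4 and HDAC1 had r 0.36 but a rho of 0.0079. The number of reads per library (log10) had r -0.46 with HDAC11 and 0.30 with HDAC2, and its part in their relation was not tested.

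**Figure D4:**
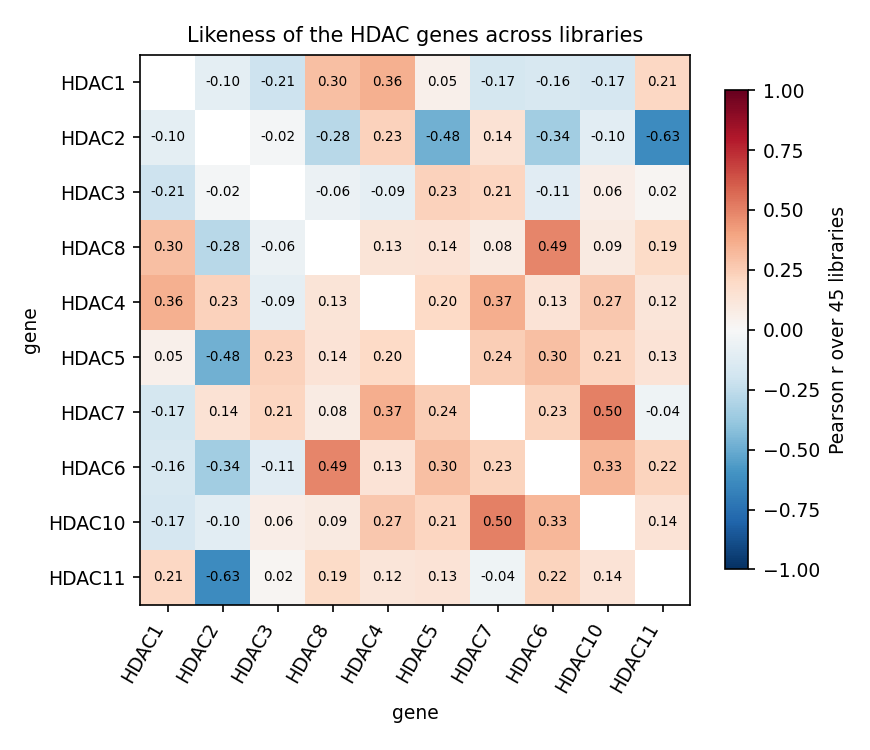
Pearson r across the 45 libraries for each pair of the 10 genes, written in each cell and shown as colour. HDAC2 with HDAC11 (-0.63) is the strongest and most pairs lie near 0.

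The genes most like each deacetylase across the 45 libraries were searched among those with a symbol and a mean log2 value of at least 1 (12487 genes, or 12488 for HDAC10). HDAC4 had the closest, with CACNA1H, a T-type calcium channel (r 0.89), DMTN, an actin-bundling protein of the red cell skeleton (0.87), and NIPSNAP2 (0.84). HDAC3 had UFSP2, a protease that processes the modifier UFM1 (0.85), TSC2, the tuberin subunit that restrains mTORC1 (0.85), and WDR35, a component of ciliary transport (0.84).

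HDAC1 was most like TNPO1P1 (0.81), SGMS2, a sphingomyelin synthase (0.75), and TNPO1, the nuclear import receptor transportin-1 (0.75). TNPO1P1 is named as a pseudogene of TNPO1, so reads of these 2 may be split between them. HDAC2 was most like CBFB, the partner of the RUNX factors (0.78), KANSL2 of the NSL acetyltransferase complex (0.77) and STARD7, a lipid transfer protein (0.74). HDAC8 was most like SFXN5 (0.66), WDR24 (0.66) and MDFI (0.65).

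HDAC5 was most like NKD2, an inhibitor of Wnt signalling (0.79), NCKAP5L (0.77) and DLGAP4 (0.75), and HDAC7 was most like NISCH (0.78), PPIP5K1, an inositol pyrophosphate kinase (0.75), and the ETS factor ETV1 (0.75). HDAC6 was most like PLD2, a phospholipase D (0.80), the exonuclease ISG20 (0.79) and WDR24 (0.72). HDAC10 had lower values, with TCAF1 (0.56), ZNF865 (0.52) and HDAC7 (0.50), and HDAC11 was most like TUBB4A, a beta-tubulin (0.73), MKS1 (0.71) and EHBP1L1 (0.70).

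By the listed names, the expression of the deacetylases in each siRNA condition was compared to mock, in 1 Limma fit of all 45 libraries. Calls needed a log2 fold change of 1 or more in either direction, and a p-value under 0.05 after Benjamini-Hochberg adjustment. Of the 140 tests of the 10 genes, 0 were called, and over all genes 0 of 219730 tests were (0%). At an unadjusted p-value under 0.05, 11 of the 140 (7.86%) passed, against 4.73% of all tests, and all 11 were HDAC3. The median size of the log2 fold change was 0.19 for the 10 genes and 0.23 for all genes. An F test over the 15 listed conditions called 0 of 10 (0% of all genes), with 1 of 10 at an unadjusted p-value under 0.05 against 1.54% of all genes. All of this compares libraries by names that the target genes went against, so it does not say what a siRNA does.

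The listed mock libraries had HDAC3 values of 5.99, 5.57 and 6.30, a mean of 5.95 ± 0.37 (SD, n = 3) and the lowest mean of the 15 listed conditions. The highest was listed siPSMD13, with 6.69, 6.42 and 7.0 (mean 6.70 ± 0.29). This pair is named because its means were the lowest and the highest. The log2 fold change was 0.75 (SE 0.23, adjusted p = 0.480, Limma with Benjamini-Hochberg adjustment). Over the 14 comparisons, which share the listed mock libraries, HDAC3 ran from 0.09 (siCDK10) to 0.75. The library listed as mock replicate 2 is one of the 3 lowest in HDAC3 described above, and without it 2 of the 14 HDAC3 tests passed at an unadjusted p-value under 0.05. Against all 42 other libraries in place of listed mock, HDAC3 in listed siPSMD13 was higher by 0.30.

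The other nine genes had log2 fold changes between -0.59 and 0.54. Both ends were HDAC4, with -0.59 in listed siPOLR2D and 0.54 in listed siJAK2 (SE 0.65). The 3 libraries listed as siPOLR2D had HDAC4 values of 2.08, 3.80 and 3.83 and those listed as mock 4.13, 3.64 and 3.73, so that 1 library set the difference, and without the library listed as siPOLR2D replicate 1 it was -0.017. By the listed names, little could be resolved for HDAC4, with a 95% interval of 1.32 on either side, and more for HDAC1 (0.30) and HDAC2 (0.28). These intervals rest on the spread within listed groups, whose names the target genes went against. They do not give what true replicates could resolve. For HDAC4, the median difference was 0.77 between listed replicates and 0.24 between a library and its 2 nearest in the tree distance. HDAC1 ran from -0.20 (siGLI1) to 0.011 (siSAP130) and HDAC2 from -0.27 (siPOLR2D) to 0.12 (siTGM5). HDAC6 reached 0.50 in listed siBEGAIN, HDAC10 0.52 in listed siPSMD13 and HDAC5 0.43 in listed siPOLR2D, with adjusted p-values of 0.666 or more for these 3 genes (Limma with Benjamini-Hochberg adjustment). HDAC8, HDAC7 and HDAC11 stayed between -0.21 and 0.39.

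**Figure D5:**
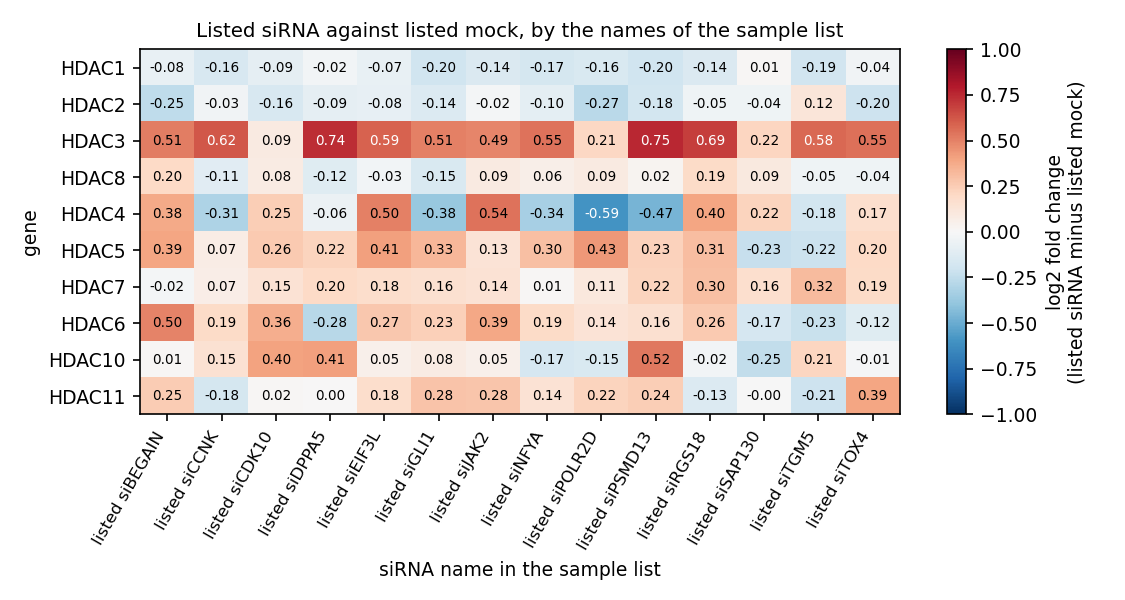
Log2 fold change of each gene (rows) in each listed siRNA against listed mock (columns), written in each cell and shown as colour. HDAC3 is positive in all 14 columns, from 0.09 to 0.75, since the listed mock has its lowest mean, and 0 of the 140 values were called.

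Genes that work with the deacetylases were all among the deposited genes, in lists chosen with earlier results of these data known. Of the 15 genes of the SIN3 complex, SAP18 was the highest with a median of 41.8 RPKM and SAP30L the lowest with 1.75. SAP130 had the largest SD of the list, 1.22 on the log2 scale, and 11 of the 15 had an SD below the median of all genes. As one of the siRNA targets, SAP130 had 22, 25 and 31 reads in one set of the tree and at least 489 elsewhere. Its SD includes those low libraries. Of the 11 genes of NuRD, the remodelling complex, the ATPase CHD4 was the highest with 48.9 and MTA3 the lowest with 3.82, MTA1 had the largest SD (0.59), and 10 of 11 were below the median SD. Of the 8 genes of CoREST, the complex of the demethylase KDM1A, HMG20B was the highest with 24.9 and PHF21A the lowest with 0.847, and RCOR2 had the largest SD (0.45), with 5 of 8 below the median SD. Of the 5 genes of the NCOR1 complex, TBL1XR1 was the highest with 12.8, and GPS2 was the lowest with 1.20 and had the largest SD (0.48), with 3 of 5 below the median SD.

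The class IIa partners held the 14-3-3 genes, with YWHAE the highest at 267 RPKM, and MEF2C, which was the lowest at 0.371 and had the largest SD (0.90). Of the 7 sirtuins, the NAD-dependent deacetylases, SIRT1 was the highest with 13.1 and SIRT5 the lowest with 0.878, and SIRT4 had the largest SD (0.70). Of 11 lysine acetyltransferases, HAT1 was the highest with 20.8 and KAT6B the lowest with 1.10, and KAT2B had the largest SD (0.62). Of 5 bromodomain readers, BRD2 was the highest with 40.5 and BRD3 had the largest SD (0.49). Of 8 substrates of HDAC6 and other deacetylases, HSP90AB1 was the highest with 1647 and SMC3 the lowest with 13.1, and TUBA4A had the largest SD (0.64). The SD was below the median of all genes for 6 of the 11 class IIa partners, 6 of 7 sirtuins, 9 of 11 acetyltransferases, 4 of 5 readers and 6 of 8 substrates. Spread falls with level, and the listed genes were not set beside genes of like level. Among the 500 genes nearest to HDAC3 in level, the median SD was 0.30, against 0.40 for all genes. These counts, and those of the complexes, therefore do not show that a list varies little.

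In each of these 9 lists 0 genes were called higher and 0 lower in any listed comparison. At an unadjusted p-value under 0.05, the share of tests was 17% for CoREST, 7.14% for the NCOR1 complex and for the class IIa partners, 6.25% for the substrates, 6.12% for the sirtuins, 5.84% for the acetyltransferases, 3.90% for NuRD, 1.90% for SIN3 and 1.43% for the readers, against 4.73% of all tests. The comparisons of a gene share the listed mock libraries, so few genes can give most of a list's tests, as HDAC3 gave 11 above. How many genes carried each share was not counted. Without mock replicate 1, 2 or 3, the share of all tests was 6.54%, 4.34% or 7.58%.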

How the data were processed

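Per the labels and the paper, poly-A selected RNA was sequenced single-end with the TruSeq v2 kit. The authors aligned the reads to GRCh37 with TopHat (CASAVA 1.8.2 and TopHat 1.4.1 are named in the submitters' processing notes), took gene counts with HTSeq-count from the Ensembl 67 annotation, and used EdgeR and Limma-Voom for normalisation. What the authors deposited is log2 CPM, with 0.5 reads added and library sizes scaled. Here, whole reads were worked back with 0 reads set at a library's lowest value (100% whole to within 0.001). A count of 0 allows up to 3 reads, and such limits cover counting error only. No 2 of the 45 libraries were alike within sampling noise (lowest chi-square per degree of freedom 2.56 over 990 pairs).

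The fit was made in R 4.3.3 with limma 3.58.1 (lmFit, then eBayes with a trend) on the 15695 genes that reached a log2 value of -1 in 3 or more libraries, with 30 residual degrees of freedom, and was tested on simulated data. Groups were the names in the sample list. The part of the design that would need conditions inferred from values or column order was left out. Gene names, merged exon lengths and coordinates are from GENCODE 44 on GRCh37, with a symbol for 15366 genes (97.9%). The tree used 1 minus the uncentred Pearson correlation, average linkage and genes with an SD of at least 0.75. The members and lists were chosen with earlier results of these data known. Genes named are the 10 members, the 3 genes most like each, the highest, lowest and most variable gene of each list, and siRNA targets as a check of the list. Some single genes are not reported here. Alternatives to the design, filter, scaling, weights, length and correlation, and leaving out each library, were run. Leaving 1 library out of the correlations was added after the data were seen. Python 3.11.15, numpy 2.4.6, pandas 2.3.3, scipy 1.17.1 and matplotlib 3.10.9 were used.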

Additional observations from a re-analysis of the deposited data

How the results depend on the processing

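The levels per length depended most on the length used. With the longest transcript in place of merged exons, 4 of the 10 genes kept their rank, while all 10 kept it with median-centred libraries, with log2(CPM + 1) and with the median in place of the mean. The genes most like each deacetylase depended on the correlation, since 14 of the 30 remained with Spearman in place of Pearson and 22 with median-centred libraries. The count of genes with an SD below the median of all genes was 7 or 8 of 10 in the 4 other settings. In the comparisons by listed names, 0 deacetylase tests were called in the 11 other settings and in 45 of 45 fits that left out 1 library, where the lowest adjusted p-value in any setting was 0.304 (Limma with Benjamini-Hochberg adjustment). The F test likewise called 0 throughout. Of 110 fold values under other settings and 450 with 1 library left out, 0 changed direction. Only the fold of largest size for each gene was followed, which makes a reversal less likely. A fold against listed mock rests on the libraries of its 2 listed conditions, so leaving out any other library could not move it. Settings that change only the filter, the block or the error estimate also leave the fold as it is. The 2 counts are therefore no measure of stability. With the other 42 libraries as the control, HDAC3 in listed siPSMD13 was 0.30 in place of 0.75, HDAC1 in listed siGLI1 -0.095 in place of -0.20, HDAC5 in listed siPOLR2D 0.26 in place of 0.43 and HDAC7 in listed siTGM5 0.19 in place of 0.32. HDAC8 in listed siBEGAIN was 0.12 with quantile normalisation in place of 0.20, and HDAC10 in listed siPSMD13 was 0.35 with log2(CPM + 1) in place of 0.52. Single libraries moved some folds by over 1.5 times, and the cause was not tested. HDAC1 in listed siGLI1 was -0.12 without mock replicate 2. HDAC4 in listed siPOLR2D ranged from -0.89 (without siPOLR2D replicate 3) to -0.017 (without siPOLR2D replicate 1), HDAC7 in listed siTGM5 between 0.14 and 0.50 (without mock replicate 2 and mock replicate 1, respectively), and HDAC10 in listed siPSMD13 from 0.29 (without siPSMD13 replicate 1) to 0.70 (without siPSMD13 replicate 3). With the replicate number as a block, 0 tests were called. Whether the numbers, which come from the same list as the conditions, pair the libraries is not shown. Same-numbered libraries had a median r of -0.00035 over 315 pairs (-0.57 to 0.83), and 23 of 45 libraries correlated best with a library of their own number. These correlations were taken after subtracting the means of listed conditions, whose names the target genes went against. They therefore cannot show whether the numbers pair libraries. At 11 to 38 reads per library, depth limits HDAC10.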
